A study of Drosophila ananassae and Drosophila erecta and Drosophila sechellia with 40 samples.

Results

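The 10 genes described here encode proteins of the muscle sarcomere, the contractile unit of striated muscle. They are Mhc (muscle myosin heavy chain), Mlc1 and Mlc2 (its essential and regulatory light chains), up (troponin T), wupA (troponin I), Tm2 (a tropomyosin), bt (projectin), sls (Sallimus, a titin-like protein), and Zasp52 and Zasp66 (scaffold proteins of the Z-disc). The genes were chosen by name, and all 10 were found in the tables of each of the 4 stages, which hold 27412 gene names in all. In a sarcomere, thick filaments of myosin pull on thin filaments of actin, and calcium binding to troponin shifts tropomyosin so that myosin can reach actin. Projectin and Sallimus are elastic links between the thick filament and the Z-disc, where the thin filaments are anchored. The muscles that move the antenna of a fly lie in its basal segments, and the third segment, which carries the olfactory sensilla, holds no muscle of its own.

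RNA was sequenced from wild-type strains of D. ananassae, D. virilis, D. simulans, D. erecta and D. sechellia in 4 stages of antennal development, with 2 libraries per species and stage and 40 in all. D. sechellia and D. erecta live on single host plants (specialists), and the other species are generalists. The stages were the antennal disc of larvae in the third instar (3L), the antennal disc 8 hours after puparium formation (p8), the pupal antenna 40 hours after it (p40) and the adult antenna (AA), and pupae of D. virilis were taken after 10 and 48 hours. Each library came from a pool of about 70 larvae or pupae or 300 adults, so it holds many animals and no single one. According to the study, the adults were of both sexes and at least a week past eclosion, and the third antennal segment was separated from the tissue around it. Means of D. melanogaster, from the w1118 strain (a white-eyed laboratory strain), stand in the same tables. Its libraries were not analysed here, so they carry no spread.

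The values are normalized counts, made by the authors with DESeq2 for each stage on its own, so levels were tested within a stage only. Counts are not divided by transcript length, so a ratio of 2 genes is compared only across species and does not say which gene is the more abundant. The tables hold the mean of the 2 libraries, and the whole read counts of each library were recovered from the digits of these means. Library A is the one with the larger size factor, library B the other, and the letters have no meaning across species or stages. Libraries held 17767648 to 26658372 reads at p8 and 11738398 to 23729891 at p40. At 3L and AA, where 97.2 to 99.6% and 98.6 to 99.8% of the values were resolved, the full depth is unknown, but all 200 member values were resolved. The summed olfactory markers Orco, Ir8a and Ir25a went from 10.3 to 127 at 3L to between 40967 and 60981 at AA over the 6 species, so the adult tissue carried its defining markers. Summed markers of Johnston's organ, which lies in the second antennal segment, were between 3879 in D. virilis and 12250 in D. erecta at AA. The part of the basal segments in the adult samples was not tested.

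D. simulans and D. ananassae stand apart in how their columns were filled. Of all recovered read counts, 77.5 to 78.3% were even in D. simulans and 82.3 to 82.8% in D. ananassae, against 92.4 to 95.9% in the other 3 species with libraries. At p40, 270 gene names had a value in these 2 species and in no other, while no other of the 15 species pairs had more than 98 such names. The calcium pump of muscle shows this: its row SERCA held 882 in D. simulans and 4980 in D. ananassae at p40 and 0 elsewhere, and the row of its older symbol Ca-P60A held 2120 to 7955 in the other 4 species and 0 in these 2. sls was likewise listed at 0 in both species at all 4 stages, so no level of it is given there. Counts of called genes that rest on these 2 species are therefore also given without them.

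**Figure D1:**
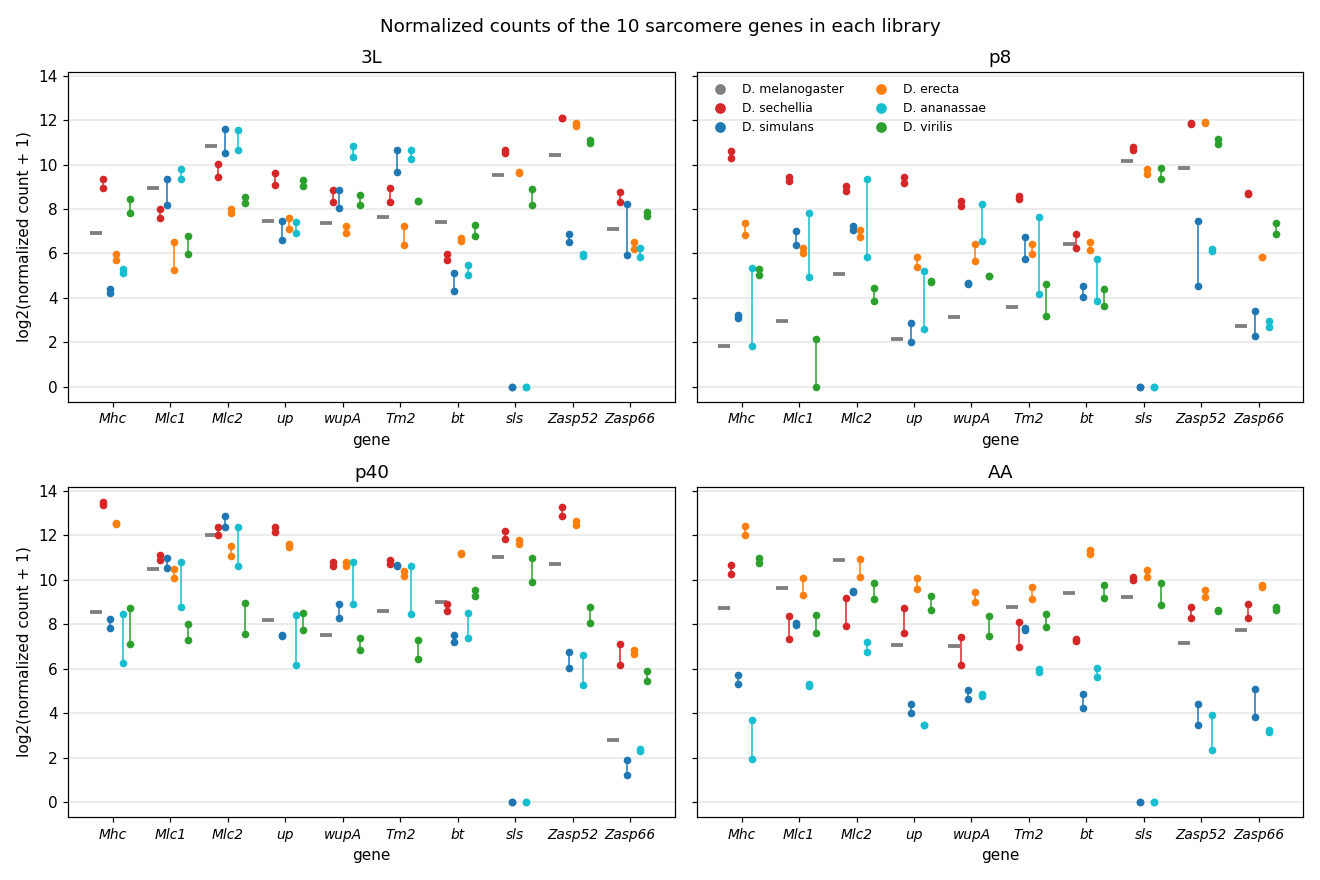
Normalized counts of the 10 sarcomere genes on a log2(value + 1) axis, 1 panel per stage. Each line joins the 2 libraries of a species (points), and a grey bar is the authors' mean in D. melanogaster. Mhc, up and Zasp52 lie highest in D. sechellia and D. erecta at p40, and sls sits at 0 in D. simulans and D. ananassae.

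Differences between species were the rule among these genes, as among all genes. In a limma F-test over the 5 species with libraries, 9 of 9 tested members differed at each stage at an adjusted p under 0.05 (Benjamini-Hochberg over all genes above 0 in the 5 species), and sls could not be tested. Over all genes tested, 89.7% differed at 3L, 87.2% at p8, 86.7% at p40 and 92.3% at AA, so the members' count says little about them in particular. The size of the differences can be described: the median log2 range over species was 3.51 for the members and 1.56 for all genes at 3L. It was 5.89 and 1.63 at p8, 4.35 and 1.83 at p40, and 6.26 and 1.78 at AA. With D. simulans and D. ananassae left out, an alternative added after seeing the data, 10 of 10 members differed between D. sechellia, D. erecta and D. virilis at 3L, p8 and AA and 9 of 10 at p40, where Zasp66 had an adjusted p of 0.0542. The background of that fit was 77.7%, 77.4%, 78.7% and 78.4% of genes at 3L, p8, AA and p40. Over these 3 species the log2 range of the members went from 1.05 (Zasp52) to 3.30 (Mhc) at 3L. It went from 0.861 (Zasp52) to 8.27 (Mlc1) at p8, 1.07 (Zasp66) to 5.50 (Mhc) at p40 and 0.854 (Zasp52) to 3.99 (bt) at AA. The median of all genes was 0.996 at 3L, 0.991 at p8, 1.25 at p40 and 1.13 at AA. At AA no member thus reached the median of 6.26 found over 5 species. As the 2 libraries of a species are pools from 1 strain, these p-values measure the spread between libraries, and fewer muscle cells cannot be told from less RNA per cell in bulk tissue.

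D. sechellia, a specialist, and its generalist sister species D. simulans are the closest pair with libraries. Mhc, up, bt and Zasp52 were higher in D. sechellia at every stage, while Mlc1, Mlc2 and Tm2 were called higher at p8 at most. At 3L, 4 of 9 members were called higher in D. sechellia and 2, Mlc2 and Tm2, lower, where 44.1% of all genes tested differed (22.7% higher and 21.4% lower). At p8, 7 of 9 were higher and none lower, against 22.4% and 21.7% of all genes (44.1% in all), with Mlc2 at a log2 difference of 1.77 and Tm2 at 2.27 not passing (adjusted p = 0.133 and 0.0831, limma). At p40, 6 of 9 were higher (Mhc, up, wupA, bt, Zasp52 and Zasp66) and none lower, against 20.5% and 17.7% of all genes (38.2% in all). At AA the same 6 were higher and none lower, against 21.9% and 21.1% (42.9% in all). Mlc1, Mlc2 and Tm2 had log2 differences of 0.23, -0.41 and 0.14 at p40 and of -0.17, -0.93 and -0.24 at AA, none of which passed. The median difference of the tested members was 1.14 at 3L, 3.59 at p8, 2.11 at p40 and 2.73 at AA, and over all genes it lay between 0.01 and 0.12. Leaving out library B of D. sechellia at 3L left 3 called members. The species pair and the way the columns were filled cannot be told apart in this contrast, since 1 species of it is on each side.

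The mean of the 2 specialists was set against that of the generalists D. simulans, D. ananassae and D. virilis. It was higher for nearly all tested members from p8 on. At p8, 9 of 9 members were higher in the mean of the specialists and none lower, where 60.4% of all genes differed (30.8% higher, 29.6% lower). At p40, 8 of 9 were higher and none lower, where 63.5% differed (33.7% higher, 29.7% lower), and at AA 9 of 9 were higher, where 63.2% differed (32.4% higher, 30.9% lower). At 3L, 3 were higher (Mhc, up and Zasp52) and 4 lower (Mlc1, Mlc2, wupA and Tm2), where 64.1% differed (32.8% higher, 31.3% lower). For Mlc1, Mlc2 and Tm2 the 2 specialists differed widely. At p8 D. erecta (means of 69.1, 119 and 72.8) lay below D. simulans (105, 140 and 79.8). D. virilis was lower still (1.69, 17.3 and 15.9). D. erecta also lay below D. ananassae for wupA (67.6 against 197) and below D. virilis for Zasp66 (55.8 against 140). At AA D. sechellia (244, 406 and 202) lay below D. simulans (258, 705 and 222) and above D. ananassae (37.1, 127 and 59.3). The mean of D. sechellia at AA was also below that of D. virilis for each tested member, as for bt (154 against 729) and up (311 against 509). Without D. simulans and D. ananassae the picture depended on the stage. At p40, 10 of 10 members were higher in the mean of D. sechellia and D. erecta than in D. virilis. Of all genes, 70.9% differed there (36.7% higher, 34.2% lower). For bt this rested on D. erecta (2327 and 2335), as D. sechellia held 478 and 385 and D. virilis 750 and 625. At p8, 9 of 10 were higher, all but Zasp66, where 68.0% differed (33.6% higher, 34.4% lower). At AA, 2 of 10 members were higher in this mean and none lower, where 65.1% of all genes differed (32.4% higher, 32.6% lower). They were Mhc, by 0.48 ± 0.16 (SE), and sls, by 0.82 ± 0.25 on the log2 scale. For Mhc this rested on D. erecta, as D. sechellia (1215 and 1645) lay below D. virilis (2007 and 1722). At 3L, Mlc2, sls and Zasp52 were higher and Mhc, up, wupA and bt lower, where 68.0% of all genes differed (33.5% higher, 34.5% lower). Of these, Mlc2 was lower in D. erecta (226 and 252) than in D. virilis (306 and 368). The means of Mhc, up and wupA were higher in D. sechellia (567, 668 and 392) than in D. virilis (285, 586 and 340). The contrast takes no account of shared ancestry.

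Mhc, the motor of the thick filament, had its highest level at p40 in D. sechellia. Its normalized counts there were 10419.6 and 11580 in the libraries of D. sechellia and 5817 and 6126 in those of D. erecta. D. virilis had 420.3 and 139, D. simulans 297 and 228, D. ananassae 76.3 and 348, and the mean of D. melanogaster was 369. The 2 specialists thus stood apart from all other species and from each other, and the libraries of the 3 generalists overlapped. The specialists exceeded the generalists by 5.21 ± 0.45 on the log2 scale (adjusted p = 3.8e-05, limma) and D. virilis alone by 5.06 ± 0.41 (adjusted p = 0.000117).

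At p8 Mhc was already at 1262 and 1549 in D. sechellia. It was at 165 and 112 in D. erecta, and at 39.0 and 32.2 in D. virilis. D. simulans held 8.39 and 7.61 (12 and 10 reads), the libraries of D. ananassae differed at 2.56 and 39.3 (3 and 44 reads), and D. melanogaster had a mean of 2.62. D. sechellia was thus the only species with Mhc above 1000 in either library at p8. In adults the order changed. D. erecta came first with 5445 and 4165, followed by D. virilis with 2007 and 1722 and D. sechellia with 1215 and 1645. D. melanogaster had a mean of 428, D. simulans 52.3 and 39.0, and D. ananassae 12.03 and 2.83 (12 and 2 reads). The libraries of D. erecta lay above those of all others, and the libraries of D. virilis lay above those of D. sechellia. At 3L, Mhc spanned 17.7 in a library of D. simulans to 649 in one of D. sechellia, with D. virilis (223 and 346) second.

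The light chains followed another order. Mlc2, the regulatory light chain, had at p40 its highest counts in D. simulans, with 7466 and 5261, against 4188 and 5297 in D. sechellia, where the libraries overlapped. D. ananassae held 1558 and 5398, D. erecta 2163 and 2945, D. virilis 489 and 191, and D. melanogaster a mean of 4184. D. virilis was thus low, and the libraries of D. ananassae spanned the range from D. erecta to D. sechellia. The specialists did not pass the test against the generalists for Mlc2 at p40 (0.96 ± 0.39 on the log2 scale, adjusted p = 0.0623, limma).

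At 3L, Mlc2 was highest in D. simulans (1476 and 3075) and D. ananassae (2987 and 1637). D. sechellia held 1036 and 700.0, D. virilis 306 and 368, D. erecta 226 and 252, and D. melanogaster a mean of 1836. Here D. erecta was the lowest species for Mlc1, Mlc2, wupA and Tm2, and D. ananassae had the highest mean of all 4. At AA the mean of D. melanogaster, 1876, was above all libraries except 1 of D. erecta (1948 and 1102), and D. ananassae was lowest with 106 and 147. Mlc1, the essential light chain, went along with Mlc2: over the 24 species means, centred within stages, the Pearson correlation was 0.947. Its lowest value was in D. virilis at p8, with 0 and 4 reads in the 2 libraries, where D. sechellia had 744 and 580 reads.

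Of the thin filament members, up, which encodes troponin T and ties the troponin complex to tropomyosin, followed Mhc. At p40 D. sechellia held 4607 and 5258 and D. erecta 2874 and 3115. The counts were 368 and 210 in D. virilis, 177 and 183 in D. simulans, 71.8 and 346 in D. ananassae, and 287 in the mean of D. melanogaster. The 2 specialists were first in the same order as for Mhc, and the correlation between both genes over the 24 means was 0.980. The fold between the highest and the lowest species mean of up was 4.94 at 3L, 185 at p8, 27.4 at p40 and 91.9 at AA.

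wupA, which encodes troponin I, the inhibitory subunit, lay between both patterns. At p40 D. sechellia (1565 and 1796) and D. erecta (1569 and 1775) were level, with D. ananassae at 481 and 1800. D. simulans held 475 and 315, D. virilis 164 and 114, and D. melanogaster a mean of 185. Tm2, a tropomyosin that lies along the thin filament, followed the light chains, with a correlation of 0.874 with Mlc2 and 0.495 with Mhc over the 24 means. At p40 D. sechellia held 1671 and 1886, D. simulans 1638 and 1579, D. erecta 1137 and 1334, and D. ananassae 351 and 1553. D. virilis was lowest with 154 and 86.5, and the mean of D. melanogaster was 388.

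Of the elastic proteins, bt (projectin) had its highest mean in D. erecta at p40 and AA. Its counts at AA were 2613 and 2317 in D. erecta and 884 and 573 in D. virilis. D. sechellia held 159 and 149, D. ananassae 48.1 and 65.0, D. simulans 17.9 and 27.8, and D. melanogaster a mean of 675. The range over the 6 means was thus 108-fold, and the libraries formed 5 steps without overlap, from D. erecta down to D. simulans. At p8, bt differed less, by 6.08-fold, and at 3L by 6.47-fold.

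The mean of sls (Sallimus) in the species in which it had a value lay between 381 and 1555 at 3L, between 786 and 1703 at p8, between 1477 and 4213 at p40 and between 606 and 1261 at AA. The ranges were 4.09-fold, 2.17-fold, 2.85-fold and 2.08-fold over 4 species. Over the same 4 species wupA had the narrowest range of the 10 at 3L (2.90-fold) and sls at the other 3 stages. At p40 the libraries of D. sechellia held 4753 and 3673, those of D. erecta 3175 and 3595, and those of D. virilis 1999.8 and 955. Those of D. sechellia lay just above those of D. erecta, and those of D. virilis below both.

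The Z-disc scaffold Zasp52, whose product binds alpha-actinin and helps to assemble the Z-disc, was lowest in D. simulans and D. ananassae at all stages. At 3L D. sechellia held 4339 and 4388, D. erecta 3364 and 3758, and D. virilis 1993 and 2235. D. simulans held 117 and 90.7, D. ananassae 62.8 and 58.0, and D. melanogaster a mean of 1367. D. sechellia, D. erecta and D. virilis thus formed 3 steps without overlap, and D. simulans and D. ananassae lay far below them. The distance stayed at p8, where D. sechellia held 3590 and 3717, D. erecta 3885 and 3783, and D. virilis 1930.5 and 2307. D. simulans then held 22.4 and 174, libraries that differed widely, and D. ananassae 73.3 and 67.9. At p40, D. virilis was no longer near the specialists, as its libraries held 443 and 264, D. sechellia 9915 and 7573, and D. erecta 6468 and 5745. D. simulans then held 64.0 and 107, D. ananassae 37.5 and 98.3, and D. melanogaster a mean of 1668. Zasp52 was the member with the largest contrast at p40 between specialists and generalists (5.91 ± 0.30 on the log2 scale, adjusted p = 3.29e-06, limma). Between the specialists and D. virilis it was the largest among the Z-disc and elastic members only (4.41 ± 0.22, adjusted p = 2.46e-05, limma). The contrast of Mhc with D. virilis was larger (5.06 ± 0.41).

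Zasp66, a Z-disc protein of the same family, was low at p40, where the filament genes were high. At p40 D. sechellia held 71.5 and 139, D. erecta 113 and 98.8, and D. virilis 43.0 and 57.7. D. simulans held 1.33 and 2.72, D. ananassae 3.88 and 4.28, and D. melanogaster a mean of 5.85. The first 3 species thus lay above the others, and the 2 specialists overlapped. In adults D. erecta held 826 and 884, D. sechellia 309 and 478, and D. virilis 398 and 437. D. simulans held 33.2 and 12.99, D. ananassae 8.02 and 8.48, and D. melanogaster a mean of 213. Each species thus had a higher count of Zasp66 in adults than at p40, with the reservation that the stages were normalized apart. In D. simulans and D. ananassae at p40 the value rests on 2 to 6 reads per library, and a pseudocount of 1 understates such differences.

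To set stages side by side, each value was divided by the total of its column and given as its share in ppm, as a description with no test. Summed over the 10 members, with sls at its listed 0 in D. simulans and D. ananassae, the share was highest at p40 in D. melanogaster (655 ppm), D. sechellia (2334), D. simulans (651), D. erecta (1662) and D. ananassae (466). D. virilis had its highest share at AA, with 357 ppm against 284 ppm at p40. Between p8 and p40 the median fold of the members was 28.7 in D. melanogaster. It was 22.2 in D. erecta, and D. simulans had 18.9, D. ananassae 10.2, D. virilis 9.66 and D. sechellia 4.84. The median over all genes lay between 1.02 and 1.32. D. sechellia had the smallest step, and its share was already 549 ppm at p8, against 25.9 in D. simulans and 50.0 in D. ananassae. Every column holds many genes. Between 2.33 and 5.56% of the total in the 5 species with libraries stood under combined names that repeat a value, against 0% in D. melanogaster.

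**Figure D2:**
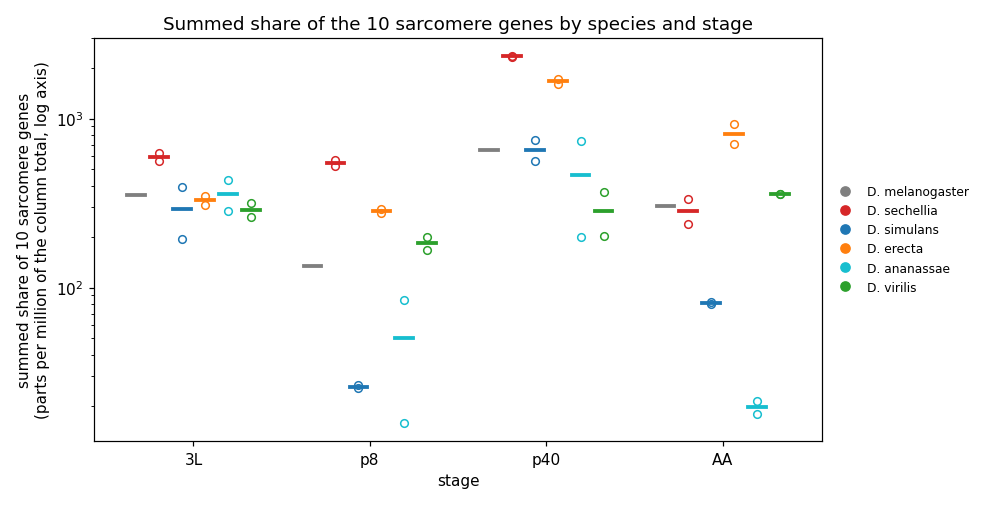
Summed share of the 10 sarcomere genes in ppm of the column total (log axis), by stage. Bars are the authors' means, and circles are the 2 recovered libraries of a species, both divided by the total of the mean column. D. sechellia and D. erecta lie above the rest at p40, and D. simulans and D. ananassae lie lowest at p8 and AA.

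The fold between the highest and the lowest species of this sum was 2.06 at 3L, 21.2 at p8, 8.23 at p40 and 41.5 at AA. At 3L, D. sechellia (596 ppm) stood above a group of 5 species from 289 to 357 ppm, among which libraries overlapped. At p8 the order was D. sechellia, D. erecta (284), D. virilis (183), D. melanogaster (133), D. ananassae (50.0) and D. simulans (25.9), with libraries of 15.9 and 84.2 ppm in D. ananassae. At p40 the libraries of D. simulans (742 and 559), D. ananassae (199 and 732) and D. virilis (366 and 201) overlapped, and both specialists were above them. At AA, D. erecta (813 ppm) was highest, D. virilis, D. melanogaster (302) and D. sechellia (286) formed a middle group, and D. simulans (80.9) and D. ananassae (19.6) were lowest. The order was another one over the 6 filament genes alone (Mhc, Mlc1, Mlc2, up, wupA and Tm2, a grouping made after seeing the data). At 3L, D. ananassae (348 ppm) and D. simulans (273) then came first, D. melanogaster and D. sechellia were level at 197, D. virilis held 118 and D. erecta 48.1. At p8, D. sechellia stayed first with 217, followed by D. ananassae (44.2), D. erecta (27.6), D. simulans (19.3), D. virilis (7.29) and D. melanogaster (3.82), so most of the p8 share of the last 2 lay in sls and Zasp52. At p40 the 2 specialists stayed first, with 1540 and 944 ppm, and at AA D. erecta did, with 522. The fold was then 7.24 at 3L, 56.8 at p8 and 15.6 at p40. The folds over all 10 members depended on the species and single libraries that entered. With D. sechellia, D. erecta and D. virilis alone the fold was 2.99 at p8 and 2.85 at AA, and at 3L and p40 it was the same as over 6 species. The fold at 3L was 3.09 without library B of D. simulans and that at p8 34.6 without library B of D. ananassae. At p40 it was 11.7 without library B of D. ananassae and 11.6 without library A of D. virilis.

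Over the whole group the stage of the highest share depended on the gene. Of the members with values, 6 of 10 peaked at p40 in D. melanogaster, 9 of 10 in D. sechellia, 7 of 9 in D. simulans, 9 of 10 in D. erecta, 6 of 9 in D. ananassae and 2 of 10 in D. virilis. None peaked at p8 in any species. Mhc in D. erecta went from 7.41 ppm at p8 to 359 at p40 and 267 at AA, a 48.5-fold step followed by a fall of the share to 0.742 of its level. In D. virilis it went from 2.05 to 20.1 and then to 108 ppm. The elastic and Z-disc genes began at another level, with Zasp52 at 207 ppm at p8 and 514 at p40 in D. sechellia, and D. erecta at 205 and 368. Zasp52 then had its lowest share at AA in all 6 species, from 0.520 ppm in D. ananassae to 37.2 in D. erecta. Zasp66 had its highest share at AA in D. melanogaster, D. sechellia, D. erecta and D. virilis and at 3L in D. simulans and D. ananassae.

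**Figure D3:**
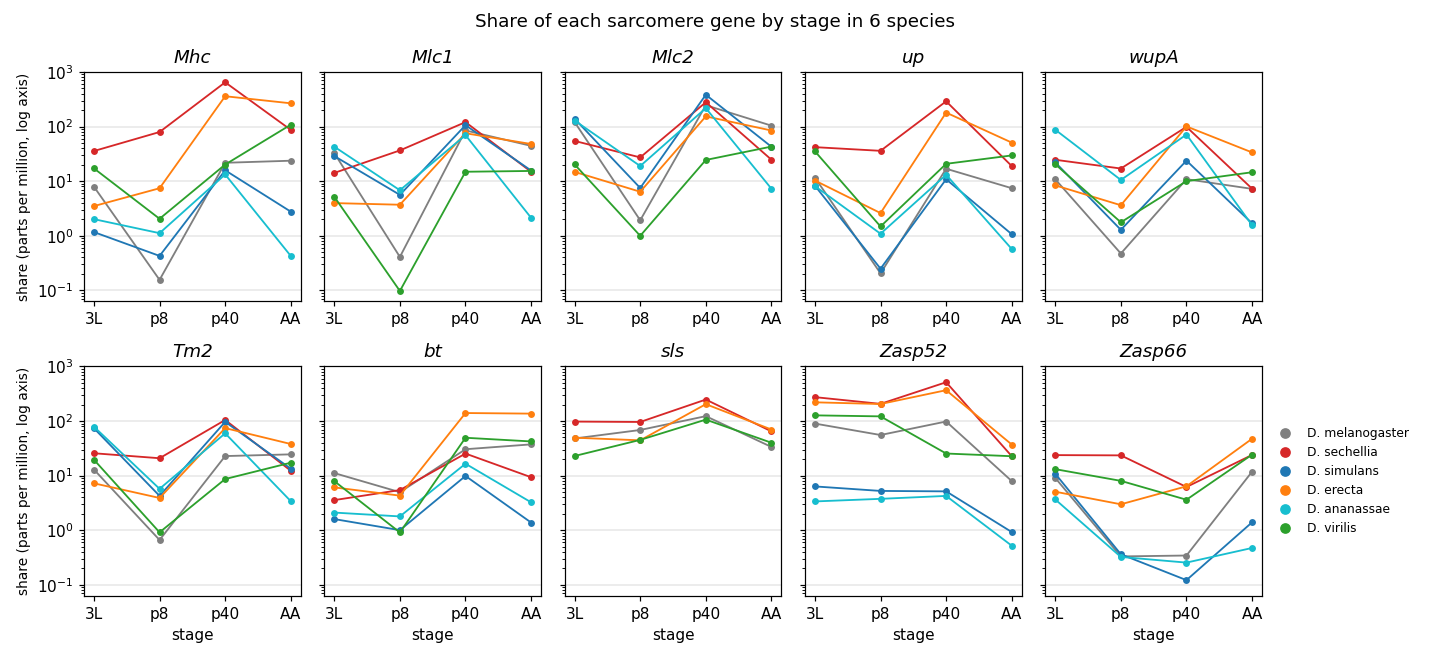
Share of each sarcomere gene in ppm of the column total (log axis) at the 4 stages, 1 line per species. Most filament genes dip at p8 and, except in D. virilis, peak at p40. Zasp52 is lowest at AA, and Zasp66 is lower at p40 than at AA in each species. Stages were normalized apart, so the lines carry no test, and sls has no line in D. simulans and D. ananassae.

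Some members varied together across species. Mlc1, Mlc2 and Tm2 went together (correlations of 0.874 to 0.947), as did Mhc and up (0.980) and up and Zasp66 (0.900), while Mlc2 with Zasp52 gave -0.10. wupA went with both sides, at 0.827 with Tm2 and 0.746 with up. These are descriptions over 24 means from 6 species and 4 stages, which share columns and size factors. The difference between Mhc and the light chains can be read as a ratio within a library, which needs no scaling between species. The count of Mhc over that of Mlc2 at p40 was 2.49 and 2.19 in the libraries of D. sechellia, 2.69 and 2.08 in D. erecta and 0.860 and 0.731 in D. virilis. It was 0.0398 and 0.0434 in D. simulans, 0.0490 and 0.0644 in D. ananassae and 0.0882 in the mean of D. melanogaster. The 6 species thus formed an upper and a lower group with no overlap, and the same was true at 3L, p8 and AA.

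At 3L the mean ratio was 0.654, 0.236 and 0.845 in D. sechellia, D. erecta and D. virilis and 0.0654, 0.00839 and 0.0156 in D. melanogaster, D. simulans and D. ananassae. For up over Mlc2 at p40 it was 1.04, 1.17 and 0.850 against 0.0686, 0.0283 and 0.0601 in the same order of species. Mlc1 over Mlc2 kept the same 2 groups of species at p40 but over a far narrower range, from 0.277 in D. simulans to 0.608 in D. virilis. Tm2 over Mlc2 lay between 0.253 and 0.484 at p40 in the species with libraries and at 0.0928 in D. melanogaster. At 3L, Mlc1 over Mlc2 did not separate the groups, with 0.255 to 0.268 in the first 3 species against 0.207 to 0.332 in the last 3. The counts are not divided by length, and the transcript that stands for a gene in each species is not given in the tables, so a ratio can be read across species only as counts on the deposited rows.

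**Figure D4:**
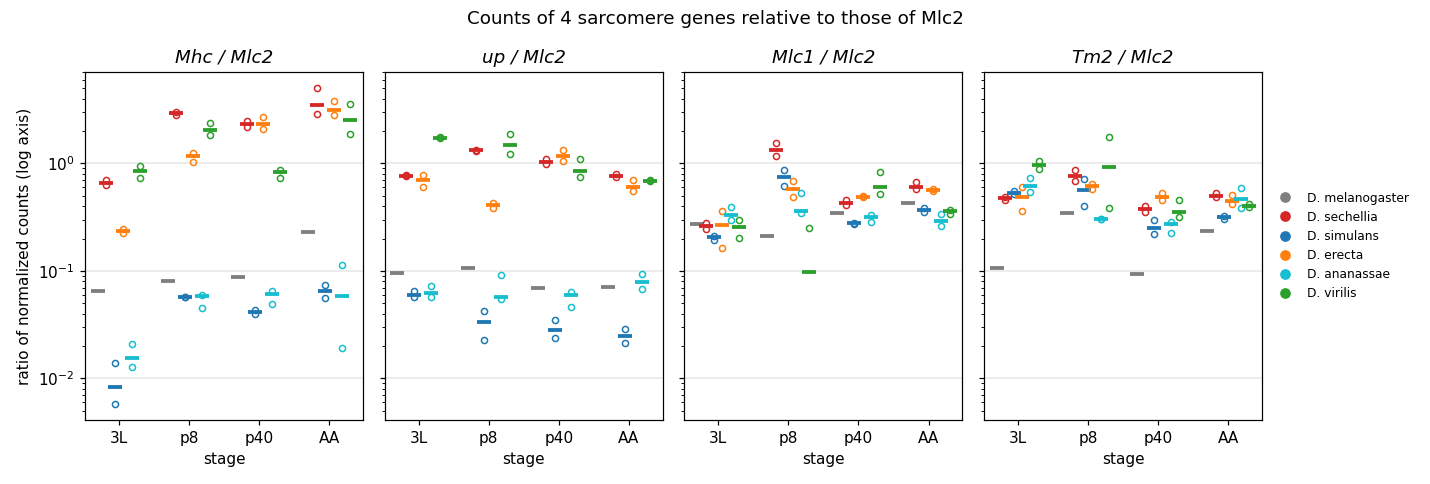
Normalized counts of Mhc, up, Mlc1 and Tm2 divided by those of Mlc2 (log axis), by stage. Bars are ratios of the authors' means and circles are single libraries, and 1 library of D. virilis at p8 without Mlc1 reads is left out. Mhc and up relative to Mlc2 are low in D. melanogaster, D. simulans and D. ananassae at all stages, and Mlc1 relative to Mlc2 spans a much narrower range at p40 (0.277 to 0.608).

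A pair of genes for non-muscle myosin gave a point of comparison. zip, the heavy chain of non-muscle myosin, over sqh, its regulatory light chain, was 0.538 in D. simulans at p40 and 2.02 in D. melanogaster. It was highest in D. virilis, at 7.73, while D. erecta had 3.89, D. ananassae 3.52 and D. sechellia 2.96. D. simulans was thus low for this ratio too, and D. ananassae was not. The column of D. melanogaster, also in the lower group, differed from the others in having 0% of its total under repeated names. The part that the filling of the columns plays in the split of the sarcomere genes was not tested.

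In 12 of 20 pairs of libraries of a species, the 6 filament genes all went in the same direction, and in the other 8 they did not. In 3 of 20 pairs their median log2 difference was over 1. The clearest case was D. ananassae at p8. From library A to library B, Mlc1 went from 29.8 to 226, Mlc2 from 56.2 to 654, Tm2 from 17.04 to 198 and wupA from 93.7 to 301. Mhc and up were higher in library B too, with 44 against 3 reads and 40 against 6. The elastic member bt was also higher in library B (13.6 and 53.6). Zasp52 (73.3 and 67.9) and Zasp66 (6.82 and 5.36) did not share in this shift. The median log2 difference of the 6 genes was 3.17, and 1.44% of all genes of at least 10 counts differed by more between these libraries.

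In D. ananassae at p40 all 9 members with values were higher in library B, with a median log2 difference of 2.08 over the filament genes, which 2.24% of all genes exceeded. In adult D. sechellia the 6 filament genes were higher in library B by a median of 1.14 (3.81% of genes exceeded it), with Mlc2 at 240 and 572, while bt (159 and 149) and sls (1117 and 1010) were level. In D. virilis at p40 they were higher in library A by 0.82 (8.60%). In D. simulans at 3L, 5 of 6 were higher in library B, with Mlc2 at 1476 and 3075, and Mhc was level at 20.4 and 17.7. In 19 of 20 pairs the median absolute difference of the filament genes exceeded that of all genes. With 2 libraries per species, no test of such a block was made.

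**Figure D5:**
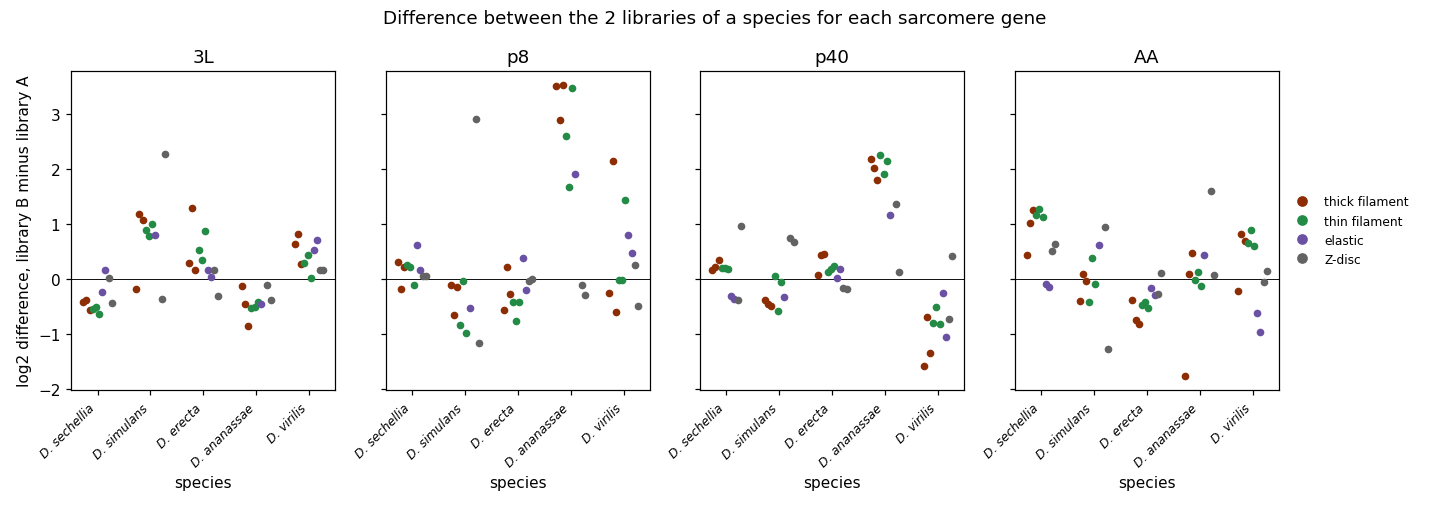
Log2 difference between the 2 libraries of a species (library B minus library A) for each sarcomere gene, coloured by role, 1 panel per stage. Points of the thick and thin filament lie together above 0 in D. ananassae at p8 and p40 and in D. sechellia at AA and below 0 in D. virilis at p40, while elastic and Z-disc points often lie apart from them.

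Markers of other cells moved in some of these pairs. In D. ananassae at p8 the summed markers of Johnston's organ, the hearing organ of the second antennal segment, were 1059 in library A and 3674 in library B, and 6 of 6 markers of at least 10 counts were higher in B. The neuron list was at 2681 and 3556, with 5 of 5 higher in B, and glial markers were at 2517 and 2928, with 4 of 4 higher in B. Tendon cell markers were at 7517 and 6831 and myoblast genes at 16272 and 15989 there. Tracheal genes were at 364589 and 287517 and photoreceptor genes at 1912 and 1686, each with 3 of 3 lower in B. Fat body genes were at 29075 and 18202, with 4 of 6 lower in B. Haemocyte markers were at 7726 and 6614, with 4 of 7 lower in B. In D. ananassae at p40 photoreceptor genes were at 850 and 1921, with 4 of 4 higher in B, and fat body genes at 6114 and 9725. The neuron list was at 8895 and 11664 in that pair, with 5 of 5 higher in B, and tendon cell markers at 4337 and 5666, with 4 of 5. Tracheal genes were at 8372 and 6076, with 3 of 3 lower in B. Haemocyte markers had 4 of 7 higher in B, glial markers 3 of 5 and Johnston's organ markers 3 of 7. In adult D. sechellia photoreceptor genes were at 2884 and 28013, with 5 of 5 higher in B, and fat body genes at 5848 and 11109. In D. simulans at 3L the neuron list was at 1278 and 556, and 5 of 5 fat body genes of at least 10 counts with resolved libraries were higher in library B. In D. virilis at p40 haemocyte markers were at 2687 and 1986, with 5 of 6 higher in library A, and fat body genes at 746 and 354. Tracheal genes there were at 3301 and 2789, and tendon cell genes were level at 6729 and 6664. The part of these cells in the sarcomere values was not tested.

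Other genes of the sarcomere come from a list of 23 drawn up by name. The list holds 3 actin names, Act57B, Act87E and Act88F, which carry the same value in each of the 5 species with libraries and are counted once here. Of the genes that could be tested, 10 of 11 differed between the 5 species at 3L, 11 of 12 at p8, 15 of 16 at p40 and 15 of 16 at AA, near the shares of all genes (89.7%, 87.2%, 86.7% and 92.3%) and so no result about the list. Against the generalists, the specialists were higher in 5 and lower in 4 of 11 at 3L, where 32.8% of all genes were higher and 31.3% lower. They were higher in 8 and lower in 2 of 12 at p8 (30.8% and 29.6% of all genes), higher in 11 and lower in 2 of 16 at p40 (33.7% and 29.7%), and higher in 10 and lower in 2 of 16 at AA (32.4% and 30.9%). With D. virilis as the only generalist, 4 were higher and 4 lower of 13 at 3L (33.5% and 34.5% of all genes), 9 and 3 of 17 at p8 (33.6% and 34.4%), 15 and 3 of 19 at p40 (36.7% and 34.2%), and 8 and 3 of 19 at AA (32.4% and 32.6%). The shared actin value at p40 was 12826 in D. sechellia and 927 in D. virilis, with D. erecta (8001), D. simulans (7098) and D. ananassae (5461) between them. In D. melanogaster the names have values of their own, at 1287 for Act57B, 2493 for Act87E and 277 for Act88F. Of the list's genes with at least 10 counts, 18 of 19 were higher in library B of D. ananassae at p40 and 12 of 18 at p8. Higher in library B of adult D. sechellia were 15 of 17, and higher in library A of D. virilis at p40 were 13 of 16.

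The widest ranges in that list were those of the troponin C genes TpnC47D and TpnC73F, calcium sensors of the thin filament, and of flightin (fln), a thick filament protein of flight muscle. TpnC47D at p40 went from 0.401 in D. virilis to 208 in D. erecta, and TpnC73F at AA from 2.41 in D. sechellia to 463.5 in D. erecta. fln was at most 1.75 at 3L and p8 in any species. At AA it stood at 711 in D. sechellia and 546 in D. simulans, against 81.7 in D. erecta, 70.5 in D. melanogaster, 27.1 in D. virilis and 5.24 in D. ananassae. The adult order of fln was thus not that of Mhc, which was highest in D. erecta. Mf (myofilin, a thick filament protein), chosen after its values were seen, was like Zasp66 low at p40, between 0.80 and 42.7, and at 25.6 to 959 at AA.

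Genes of calcium handling and energy supply showed the naming of the rows more than a pattern, as only 3 of 9 could be tested. Of these, 3 of 3 differed between species at 3L, 2 of 3 at p8 and 3 of 3 at p40 and AA. The specialists were higher in none and lower in 1 at 3L, and higher in 2 and lower in none at p8, p40 and AA. With D. virilis as the only generalist, none was higher and 2 lower of 4 at 3L, 1 and 3 of 5 at p8, 4 and 1 of 5 at p40, and 2 and 1 of 4 at AA. With so few genes nothing is read from these counts against the all-gene shares given for the sarcomere list. RyR, the calcium release channel of muscle and neurons, was at 1581 in D. simulans at p40 and 348 to 844 in the other species with libraries. Ca-alpha1D, a voltage-gated calcium channel, was at 40.6 in D. simulans and 796 in D. sechellia at p40. Sh, a potassium channel also used in neurons, ranged from 50.3 in D. ananassae to 7772 in D. melanogaster at AA. Argk, arginine kinase, was listed at 0 in D. simulans and at 5967 to 22310 in the other 5 species at p40.

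Genes that build or attach muscle differed less between species than the members, by their median range. Over the muscle attachment list, integrin subunits and their linkers, the median log2 range was 0.87 at 3L, 0.56 at p8, 0.86 at p40 and 0.81 at AA, below that of all genes, and for myoblast genes it was 2.06, 1.55, 2.01 and 2.01. Of 7 tested, 3 were higher and 1 lower in the specialists at 3L, 1 and 1 at p8, 4 and 1 at p40, and 3 and 1 at AA. mys, the beta integrin, lay between 3978 and 6591 in the 6 species at p40, rhea, which encodes talin, between 602 and 4607, and kon between 2703 and 4428. Of the myoblast and muscle regulator list, 3 of 12 were higher and 5 lower in the specialists at 3L, 1 and 6 of 14 at p8, 3 and 7 of 14 at p40 and 4 and 5 of 12 at AA. The all-gene shares were 32.8% higher and 31.3% lower at 3L, 30.8% and 29.6% at p8, 33.7% and 29.7% at p40 and 32.4% and 30.9% at AA, and no count of either list is read as a result about it. With D. virilis as the only generalist, the higher and lower genes of the attachment list were 3 and 2 of 8 at 3L, 3 and 1 at p8, 4 and 1 at p40 and 2 and 1 at AA. Those of the myoblast list were then 4 and 4 of 13 at 3L, 2 and 5 of 15 at p8, 4 and 4 of 15 at p40 and 8 and 2 of 13 at AA. The myoblast genes with the largest share were the fusion genes mbc, rst and blow. The list's widest ranges were at AA, with sns from 20.0 to 584, lmd from 1.31 to 65.9 and sing from 9.20 to 228. The summed level of this list lay between 12392 and 18025 at p40, a narrow range beside that of the members.

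Tendon cells anchor muscle to cuticle, and their 5 markers were present in every species and stage. All 5 differed between species at 3L, p8 and p40 and 4 of 5 at AA. The specialists were higher in 4 and lower in 1 at 3L, higher in 2 at p8, higher in 2 and lower in 2 at p40, and higher in 2 and lower in 1 at AA. With D. virilis as the only generalist, 2 were higher and 3 lower at 3L, 3 higher at p8, and 2 higher and 2 lower at p40 and AA. The all-gene shares are those given for the lists above (86.7 to 92.3% for the test between species), and 5 genes are too few to be read against them. Tsp (thrombospondin) at p40 was highest in D. sechellia (7151) and D. erecta (5351), and D. simulans held 3484, D. melanogaster 3180, D. virilis 2578 and D. ananassae 1680. sr (stripe), the tendon cell regulator, was lowest in D. sechellia (90.6) and highest in D. simulans (1147), how, an RNA-binding protein of tendon and muscle, lay between 824 and 4231, and slow between 559 and 1431.

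The lists of other cell types at p40 ran across the species in their own orders. The summed haemocyte markers lay between 2336 in D. virilis and 4728 in D. simulans, glial markers between 2648 in D. simulans and 7397 in D. sechellia, and neuronal markers between 3972 in D. virilis and 12928 in D. melanogaster. Markers of Johnston's organ lay between 8568 and 22940, olfactory markers between 233 and 2487, photoreceptor genes between 145 and 1559, fat body genes between 550 and 7919 and tracheal genes between 3045 and 26019. Non-muscle myosin and actin genes summed to between 20355 in D. sechellia and 173146 in D. virilis. D. sechellia and D. erecta were the 2 highest species for tracheal genes (21056 and 26019), glial genes (7397 and 6624) and tendon cell genes (11629 and 10387), as they were for the summed members, and the part of these cells was not tested. They were not for the other 7 of these lists. Of the haemocyte genes, 2 of 6 were higher and 2 lower in the specialists, of the fat body genes 4 of 6 higher and none lower, of the neuron genes 1 and 2 of 3, of the glial genes 3 of 4 higher, of the Johnston's organ genes 4 of 6 higher, of the olfactory genes 1 of 2 higher, of the photoreceptor genes 2 of 2 higher, of the tracheal genes 2 of 3 higher and of the non-muscle myosin and actin genes 1 higher and 3 lower of 5. Over all genes 33.7% were higher and 29.7% lower, and no list of so few genes is read against that. With D. virilis as the only generalist, where 36.7% of all genes were higher and 34.2% lower, the fat body genes had 7 higher and 1 lower of 8, the Johnston's organ genes 6 and 1 of 7, the haemocyte genes 4 and 1 of 6, the glial genes 3 and 1 of 5, the neuron genes 2 and 1 of 4, the olfactory genes 1 and 1 of 3 and the non-muscle myosin and actin genes 2 and 3 of 5. The photoreceptor genes had 4 of 4 higher and the tracheal genes 3 of 3.

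At p8 the members were also higher in the mean of the specialists. Of other lists, 4 of 4 glial genes, 4 of 6 genes of Johnston's organ, 2 of 2 olfactory genes and 2 of 3 photoreceptor genes were too. None of these genes was lower, where 30.8% of all genes were higher and 29.6% lower. The haemocyte list had 3 higher and 3 lower of 7, the fat body list 3 and 2 of 6, and the neuron list 1 and 1 of 3. Tracheal genes had 1 higher and 1 lower of 3, and non-muscle myosin and actin genes none higher and 4 lower of 5. Photoreceptor genes summed to 4110 in D. sechellia and to between 530.3 in D. melanogaster and 2239 in D. virilis in the other species. For glial genes D. sechellia had a sum of 3733 and D. erecta one of 2565, and the other 4 species lay between 1425 and 2739. For Johnston's organ D. sechellia had 2322 and D. erecta 1443, with D. ananassae at 2366, D. melanogaster at 1407, D. virilis at 466 and D. simulans at 386. With D. virilis as the only generalist, 2 glial genes were higher and 1 lower of 5, 5 of 7 genes of Johnston's organ and 3 of 5 photoreceptor genes were higher and none lower, and none of 3 olfactory genes passed, against 33.6% higher and 34.4% lower of all genes. The haemocyte list then had 4 higher and 3 lower of 7, the fat body list 4 and 1 of 8, and the neuron list 2 and 1 of 4. Tracheal genes had 2 and 1 of 3, and non-muscle myosin and actin genes 1 and 3 of 5. The part of these cells in the sarcomere values at p8 was not tested.

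The genes outside the list whose pattern was most like the mean of the members were found among 9233 genes by the correlation over 24 means, centred within stages, which share columns and size factors. They were slo, a calcium-activated potassium channel (0.868), Ndae1, an anion exchanger (0.844), ClC-a, a chloride channel (0.839), CG34398 (0.829), RIC-3, a chaperone of acetylcholine receptors (0.825), Cda5, a chitin deacetylase (0.819), Pax, which encodes the adhesion protein paxillin (0.812), and SNF4Agamma, a subunit of AMP-activated kinase (0.810). Among the members themselves the correlation with this mean, of which each is a part, went from 0.369 for Mlc2 to 0.969 for Mhc. The mean takes sls at its listed 0 in D. simulans and D. ananassae. Without sls, an alternative added after seeing the data, only slo of these 8 genes was still among the first 8, and their correlations lay between 0.669 and 0.758, so the order above rests on sls. The first 3 genes were then Mf, the thick filament protein myofilin (0.844), CanA1, a catalytic subunit of calcineurin (0.843), and sals, which governs thin filament length (0.834).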

How the data were processed

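The authors trimmed paired reads of 40 libraries (CASAVA 1.8 for base calls), mapped them with BWA 0.7.8 to a FlyBase transcriptome per species, counted them per gene by FlyBase orthologs, retained only the transcript with most reads if orthologs were multiple, and normalized each stage with DESeq2. The deposited signal is a normalized count averaged by the authors over both libraries of each group. Strand was kept by the library kit, and its use in counting is not given in the sources used here.

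Library counts were recovered as the 1 pair of whole numbers that gives a mean at all its digits, a step chosen after seeing the data. On simulated data 4924 of 4930 values at AA digits and 4915 of 4915 at p40 digits were resolved, and 0 of them wrongly. limma 3.58.1 in R 4.3.3 was fitted per stage to log2(value + 1), with species as the term and a trended prior, and p-values were adjusted over all genes tested, with a threshold of 0.05. With data simulated for p8 and for AA, each of 5000 genes, it called 97 of 100 2-fold and 100 of 100 4-fold changes, and 11 and 7 of 4800 unchanged genes. The simulation gave every gene the same small dispersion between libraries. In some real pairs the filament genes spread far more, by a median log2 of 3.17 in D. ananassae at p8. The simulated shares thus do not give the power for the members. A pseudocount of 1 understates changes of low genes. Intervals over reads would cover counting error only and were not used. Tables were handled with Python 3.11.15, numpy 2.4.6, pandas 2.3.3 and matplotlib 3.10.9.

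The members and gene lists were chosen with earlier results of these data known. All 10 members are named at each stage. The tables hold 0 further columns of single samples. Of the muscle lists the 3 genes with the largest share and the 3 with the largest range past the F-test are named, of lists of other cell types only counts and sums are printed, and the 8 genes most like the members were taken among genes with a mean of at least 10 and above 0 in at least 20 of 24 means. Alternatives were pseudocounts of 0.1 and 10, a mean of at least 10, rescaled libraries, leaving out each library, other totals, and sums without the highest member or without D. melanogaster. Added after seeing the data were D. sechellia, D. erecta and D. virilis alone, the 6 filament genes alone, repeated names counted once, likeness without sls, and ranges over the 4 species with a value of sls.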

Additional observations from a re-analysis of the deposited data

Results flagged for a closer look

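For 3 members the difference between D. sechellia and D. simulans went in opposite directions at 2 stages in every library: D. sechellia was below D. simulans at 3L and above it at p8. For Mlc1 the log2 difference was -0.96 at 3L and 2.64 at p8, which are 3.60 apart. Mlc2 had -1.32 and 1.77, 3.09 apart, and Tm2 had -1.51 and 2.27, 3.79 apart. Of these, the differences of Mlc2 and Tm2 at 3L and of Mlc1 at p8 passed the test within their stage, and those of Mlc1 at 3L and of Mlc2 and Tm2 at p8 did not. The difference between the stages was not tested, since each stage was normalized on its own.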

How the results depend on the processing

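Of 56 alternative counts of called members without leaving out a library, 55 stayed within 1.5 times the reported count. The exception was the specialist contrast at AA, which gave 2 members with D. sechellia, D. erecta and D. virilis alone. Leaving out 1 library moved 1 of 120 counts by more: D. sechellia against D. simulans at 3L went from 6 to between 3 and 6. A count of called members does not record direction. At 3L the specialist contrast called Mhc and up higher against all generalists with libraries and lower against D. virilis alone. For Mlc2 the direction was the reverse, lower against all of them and higher against D. virilis alone. The fold of the summed share moved by more than its spread between libraries in some settings. Without the highest member it was 3.25 at 3L, 16.5 at p8 and 28.5 at AA, and over the 6 filament genes 7.24 at 3L, 56.8 at p8 and 15.6 at p40. With D. sechellia, D. erecta and D. virilis alone it was 2.99 at p8 and 2.85 at AA. Leaving out 1 library gave 1.95 to 3.09 at 3L, 20.3 to 34.6 at p8 and 6.38 to 11.7 at p40. The causes were not tested. No paired analysis was possible because the recovered libraries carry no replicate number. With 2 libraries per group, counts under about 10 reads, as for Zasp66 at p40 in D. simulans, limit what can be seen.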
